A study of Mus musculus with 8 samples.

Results

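The mitochondrial ribosomal protein genes were taken as every gene of the deposited results table whose symbol begins with Mrpl or Mrps followed by a digit. The rule found 68 genes, of 10601 genes in that table, and joined each by its transcript identifier to the normalized counts of the 8 mice. The values played no part in the choice. By subunit, 46 genes encode proteins of the large subunit (the Mrpl genes with Mrps18a and Mrps30, which sit in the large subunit in the known structures) and 22 encode proteins of the small subunit. Mrps18b is not analysed here.

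Poly(A)+ RNA from the cortex of 4 bigenic and 4 nontransgenic mice, all on a C57BL/6 background, was sequenced. By the paper's methods each group was mostly but not all male, and no term for sex was fitted. Bigenic mice carried Camk2a-tTa together with deltaNLS-hTDP-43, a human TDP-43 with a mutated nuclear localization signal under a doxycycline-repressed promoter. Both groups lost their doxycycline diet at 28 days of age and were killed 10 days later, so that the diet was shared and the transgenes were not. The Camk2a promoter is active in forebrain excitatory neurons, so the transgene product is made in a subset of the cells of the tissue. Because RNA was taken from bulk tissue, fewer cells of a type and less RNA per cell cannot be told apart in any value below.

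Mitochondria keep their own ribosome, which makes the few proteins still encoded by mitochondrial DNA, all of them subunits of the respiratory chain or of ATP synthase. Its rRNAs come from mitochondrial DNA, whereas all its proteins are encoded in the nucleus, made in the cytosol and imported. Some of these proteins have bacterial counterparts, such as Mrpl16 and Mrps11, and others, such as Mrpl50 and Mrps31, are found only in mitochondrial ribosomes. Neurons depend on oxidative phosphorylation for most of their ATP, and defects in several of these proteins cause inherited disease of heart, brain or liver.

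Many of these genes lie head to head with another gene and share its upstream region. In the GENCODE annotation of the mm9 genome build, 23 of the 68 genes (33.8%) had a protein-coding gene on the other strand whose start lay within 1000 bases upstream or overlapped the first exon by up to 500 bases, against 13.9% of 10151 tested protein-coding genes. In 1 pair both genes belong to the mitochondrial ribosome, Mrps11 and Mrpl46 on chromosome 7. The sequence from 250 bases before to 50 bases after the start is shown for this pair, as read from Mrps11, and for 3 other genes whose levels differed between the groups (Mrps18a and Mrpl9 higher, Mrpl33 lower in bigenic mice). All 4 are RefSeq sequences on GRCm38.p6 (Mrps11 chr7:78782881-78783180, Mrps18a chr17:46110754-46111053, Mrpl9 chr3:94443086-94443385 and Mrpl33 chr5:31613701-31614000, each on the plus strand), printed in lower case with matches to the letters searched for NRF1, ETS and YY1 in capitals.
Mrps11: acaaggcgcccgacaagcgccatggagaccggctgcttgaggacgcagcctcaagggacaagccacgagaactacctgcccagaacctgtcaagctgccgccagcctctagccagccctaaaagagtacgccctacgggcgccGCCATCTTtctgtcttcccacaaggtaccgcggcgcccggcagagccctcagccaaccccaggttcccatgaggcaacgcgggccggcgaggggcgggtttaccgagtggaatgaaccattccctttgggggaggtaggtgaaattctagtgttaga
Mrps18a: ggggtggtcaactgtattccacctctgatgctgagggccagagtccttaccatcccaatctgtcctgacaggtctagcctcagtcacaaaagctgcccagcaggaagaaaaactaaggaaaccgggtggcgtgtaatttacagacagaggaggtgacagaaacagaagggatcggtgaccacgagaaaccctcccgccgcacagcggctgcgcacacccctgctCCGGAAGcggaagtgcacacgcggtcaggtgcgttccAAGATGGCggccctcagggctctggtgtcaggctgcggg
Mrpl9: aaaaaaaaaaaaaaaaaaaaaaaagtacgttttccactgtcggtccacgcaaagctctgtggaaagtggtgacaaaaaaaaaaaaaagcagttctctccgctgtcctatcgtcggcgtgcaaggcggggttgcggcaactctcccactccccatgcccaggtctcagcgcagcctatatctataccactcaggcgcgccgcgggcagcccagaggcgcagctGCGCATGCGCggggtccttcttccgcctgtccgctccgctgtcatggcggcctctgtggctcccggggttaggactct
Mrpl33: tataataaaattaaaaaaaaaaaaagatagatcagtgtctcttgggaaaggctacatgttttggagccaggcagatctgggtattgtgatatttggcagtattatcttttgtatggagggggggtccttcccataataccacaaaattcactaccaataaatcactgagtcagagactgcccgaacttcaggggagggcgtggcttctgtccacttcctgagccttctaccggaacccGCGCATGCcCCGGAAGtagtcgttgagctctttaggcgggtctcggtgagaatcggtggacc

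The letters searched, on both strands, were GCATGCGC for NRF1, CCGGAAG for ETS proteins, AAGATGGC for YY1 and GGGCGG for Sp1, factors known to act at many nuclear genes for mitochondrial proteins. The end of the ETS letters and the start of the YY1 letters can overlap. At least 1 RefSeq promoter window of 300 bases matched 59 of the 68 genes by symbol. A gene was counted as holding letters if any of its windows held them, and each printed sequence is the first window of its gene. The YY1 letters occurred in 12 of the 59 (20.3%), against 5.6% of 7448 tested genes with a promoter. The ETS letters occurred in 19 (32.2%, against 19.5%), the NRF1 letters in 6 (10.2%, against 6.4%) and the Sp1 letters in 28 (47.5%, against 71.8%). In the sequences above, Mrps11 carries the YY1 letters on the minus strand, Mrps18a carries the ETS and the YY1 letters, Mrpl9 carries overlapping NRF1 matches on both strands and Mrpl33 carries NRF1 and ETS matches. The windows of Mrpl50 (higher) and Mrpl16 (lower), read as well and not printed, hold no NRF1, ETS or YY1 match. Those of other called genes, Mrpl28, Mrpl44 and Mrps31 among them, hold none either, so the printed windows do not stand for all called genes. Of the genes with a promoter, the YY1 letters were in 4 of 13 that were called higher in bigenic mice, 0 of 3 called lower and 8 of 43 not called. In the same order, the ETS letters were in 3 of 13, 1 of 3 and 15 of 43. The NRF1 letters were in 1 of 13, 1 of 3 and 4 of 43, and the Sp1 letters in 5 of 13, 1 of 3 and 22 of 43. The Mrpl46 window overlaps that of Mrps11 by 141 bases on chromosome 7, 78783040 to 78783180. These matches describe the windows and were not tested against the levels.

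Most mitochondrial ribosomal protein genes differed little between the groups, and those that did mostly rose. A gene is called when its limma adjusted p was below 0.05 over all 10588 genes that reached 10 RPM (a normalized count scaled to its column's total) in 1 mouse or more. All 68 passed that filter, 2 of them (Mrpl21 and Mrps18c, neither called) only through bigenic mice. The results table from which the 68 were taken had a like limit, so their passing was largely set in advance. By the rule for calls, 14 of the 68 genes (20.6%) were higher and 3 (4.41%) were lower in bigenic mice. Of all genes tested, 20.5% were called higher and 15.4% lower. The share of risers was near that of all genes and the share of fallers was smaller. Quantile normalization of the 8 mice gave 12 higher and 5 lower (18.9% and 17.4% of all genes), and removal of a trend on GC content and length gave 19 higher and 1 lower (22.4% and 16.7% of all genes). Array weights, by which limma gives a mouse that departs from the fit less say, gave 26 higher and 10 lower, with 34.1% and 26.9% of all genes called. The median log2(fold change) of the 68 genes was 0.058 (quartiles -0.072 and 0.24), against 0.029 (quartiles -0.22 and 0.279) for all genes. Differences of 1.5-fold or more were measured for 2 of the 68 (2.94%) and for 13.5% of all genes. In 17 genes every bigenic mouse lay above every nontransgenic mouse and in 5 every bigenic mouse lay below (22.3% and 16.7% of all genes), and all 17 called genes were among these 22.

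The subunits gave like counts. In the large subunit 10 of 46 genes rose and 2 fell (median log2(fold change) 0.058), and in the small subunit 4 of 22 rose and 1 fell, with a median of 0.045. Summed over the 68 genes, the RNA came to 1899.5, 1691.2, 1837.0 and 1838.3 RPM in the bigenic mice and to 1679.0, 1703.3, 1727.6 and 1637.5 RPM in the nontransgenic mice. The second bigenic value listed overlapped the nontransgenic range and the other 3 lay above it. That value belongs to the shallowest bigenic library. In every list of values below the mice stand in this same order, which comes from the table and carries no replicate number.

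**Figure D1:**
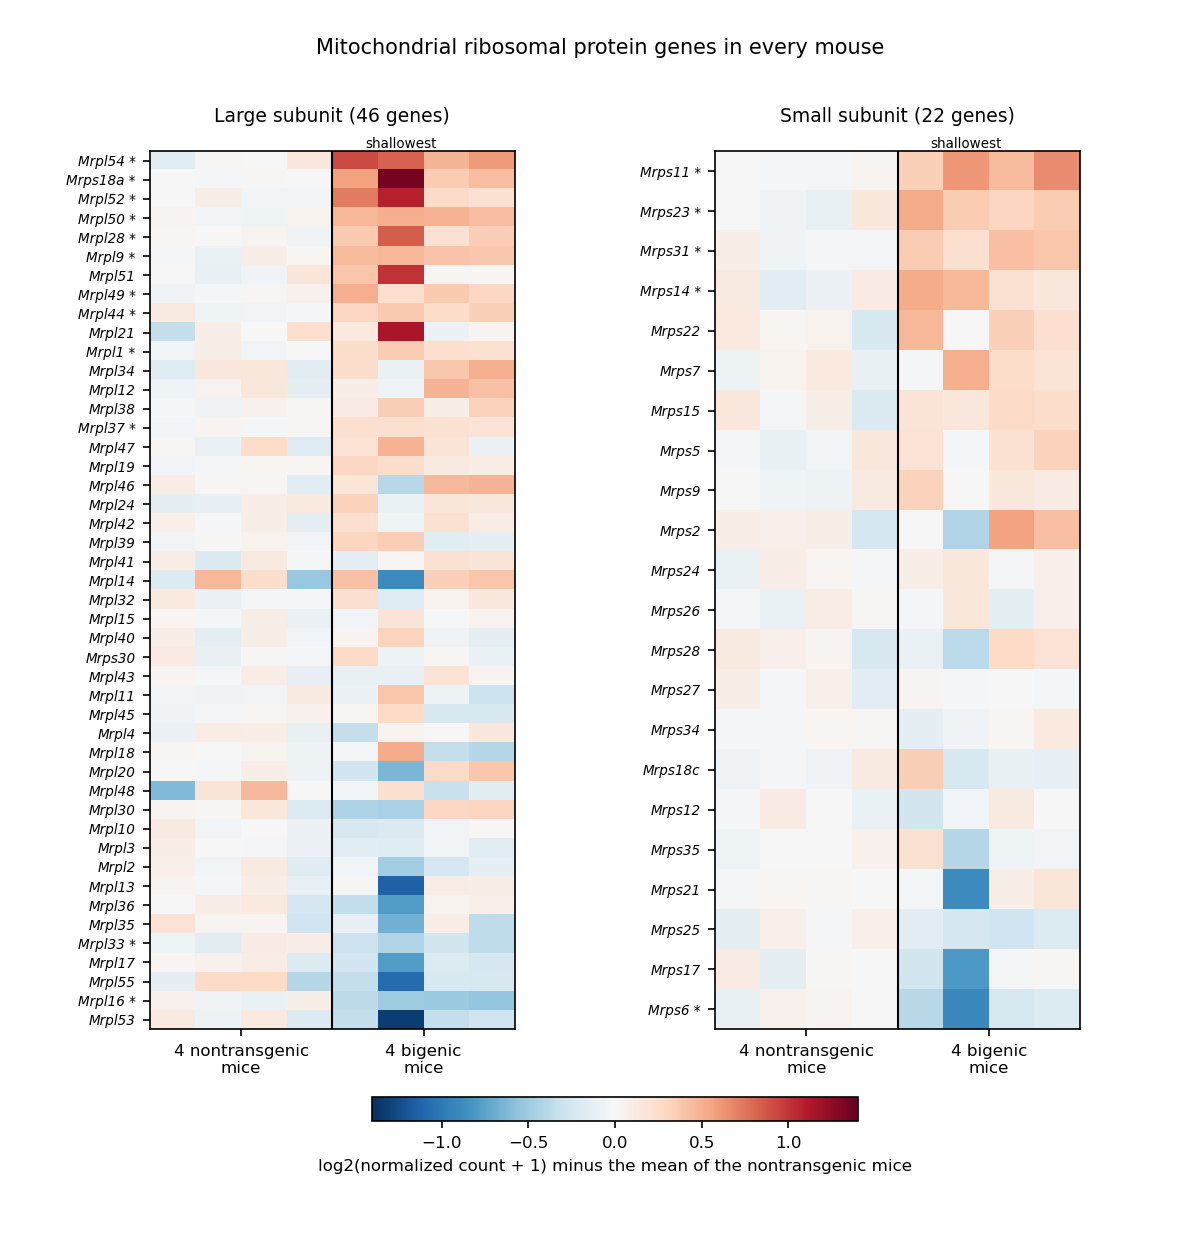
Level of each of the 68 genes in each mouse, as log2(normalized count + 1) minus the mean of the 4 nontransgenic mice, ordered by log2(fold change) within the large (46 genes) and small (22 genes) subunit. An asterisk marks a called gene. The column headed shallowest is the bigenic library with about 10.63 M reads counted on the transcripts. The 14 called risers are red in all 4 bigenic columns, and the shallowest library lies 1.5-fold or more off the other bigenic mice in 16 rows.

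The steps between low values of a column show roughly how many normalized counts a single read stands for. By this estimate about 10.63 M to 31.93 M reads were counted on the transcripts in the bigenic libraries and 20.41 M to 28.97 M in the nontransgenic libraries. Reads that were not counted on a transcript are left out, so these are not the sizes of the whole libraries. The values of the 68 genes ran from 91 to 1592 normalized counts, far above the 1.944 to 6.204 normalized counts that 3 reads are worth, a floor that covers counting error only. The shallowest bigenic mouse stood apart. It was at least 1.5-fold off the mean of the other 3 bigenic mice, on the log2 scale, in 16 of the 68 genes (5 above and 11 below), whereas each of the other 7 mice was that far from its own group in 0 or 1 of the genes. The same measure held in that mouse for 19.9% of all genes tested. Without it, 19 of the 68 genes were called higher and 7 lower, against 25.3% and 20.2% of all genes, and all 17 genes called with 8 mice were still called in the same direction.

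Of the large subunit genes that rose, Mrpl54 had the largest change. It encodes a small protein of the mitochondrial large subunit with no bacterial counterpart and lies on chromosome 10 (80727458 to 80729679, mm9). Mrpl54 had 648, 606, 473 and 518 normalized counts in bigenic mice against 307, 344, 339 and 378 in nontransgenic mice. The groups did not overlap, and the rise was 0.71 on the log2 scale (standard error 0.12, limma adjusted p = 0.00164). Mrpl52, another protein particular to mitochondrial ribosomes (chromosome 14, 55045746 to 55048587), had 545, 701, 396 and 380 against 326, 348, 319 and 320 normalized counts. Its rise of 0.58 (standard error 0.18, limma adjusted p = 0.0301) was 0.40 without the shallowest mouse, which held the highest value, and the call ended without the first bigenic or without any 1 of the nontransgenic mice (0.53 to 0.60, limma adjusted p = 0.0591 to 0.0741). These are the 5 of 18 alternative fits, stricter thresholds aside, in which Mrpl52 was not called, and with array weights its rise was 0.28.

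Mrpl50 had the smallest adjusted p of the 68 genes and little spread within either group. It encodes a protein of the large subunit that bacteria lack (chromosome 4, 49525468 to 49533965). Mrpl50 had 1053, 1086, 1066 and 1033 normalized counts in bigenic mice against 786, 744, 733 and 791 in nontransgenic mice. The rise came to 0.47 on the log2 scale (standard error 0.07, limma adjusted p = 0.000758), or 38.8% more RNA. Mrpl9, the counterpart of a bacterial protein that reaches out from the large subunit (chromosome 3, 94247240 to 94255052), was as tight, with 896, 908, 868 and 855 against 645, 618, 701 and 672 normalized counts and a rise of 0.42 (standard error 0.07, limma adjusted p = 0.00202). Both genes gave the same call in all 18 alternative fits.

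The other risers of the large subunit, Mrps18a apart, changed by less than 1.5-fold. Mrpl28 (chromosome 17, 26260465 to 26263558) had 1007, 1408, 903 and 994 against 788, 774, 802 and 756 normalized counts. Its log2(fold change) was 0.45 with all mice and 0.31 without the shallowest, and both were called. With array weights it was 0.29. Without the first or the second nontransgenic mouse Mrpl28 missed the threshold (limma adjusted p = 0.0516 and 0.0558). Mrpl49 (chromosome 19, 6053630 to 6057758) had 1171, 972, 1058 and 1003 against 798, 807, 830 and 857, a rise of 0.35. Mrpl44, a protein with a ribonuclease III fold whose loss of function causes a cardiomyopathy in people (chromosome 1, 79772593 to 79778020), had 572, 602, 558 and 588 against 509, 446, 454 and 459, a rise of 0.31. Mrpl1 and Mrpl37 were called with log2(fold changes) of 0.26 and 0.21. The bigenic mice of Mrpl37 lay within 615 and 637 normalized counts and the nontransgenic mice within 527 and 553, so that the smallest of the called changes rested on narrow groups. Mrpl37 lost its call in 9 of the 18 alternative fits, among them each removal of 1 mouse other than the shallowest (limma adjusted p = 0.0554 to 0.0900). Mrpl1 lost it without the first or the third nontransgenic mouse (limma adjusted p = 0.0724 and 0.0776).

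**Figure D2:**
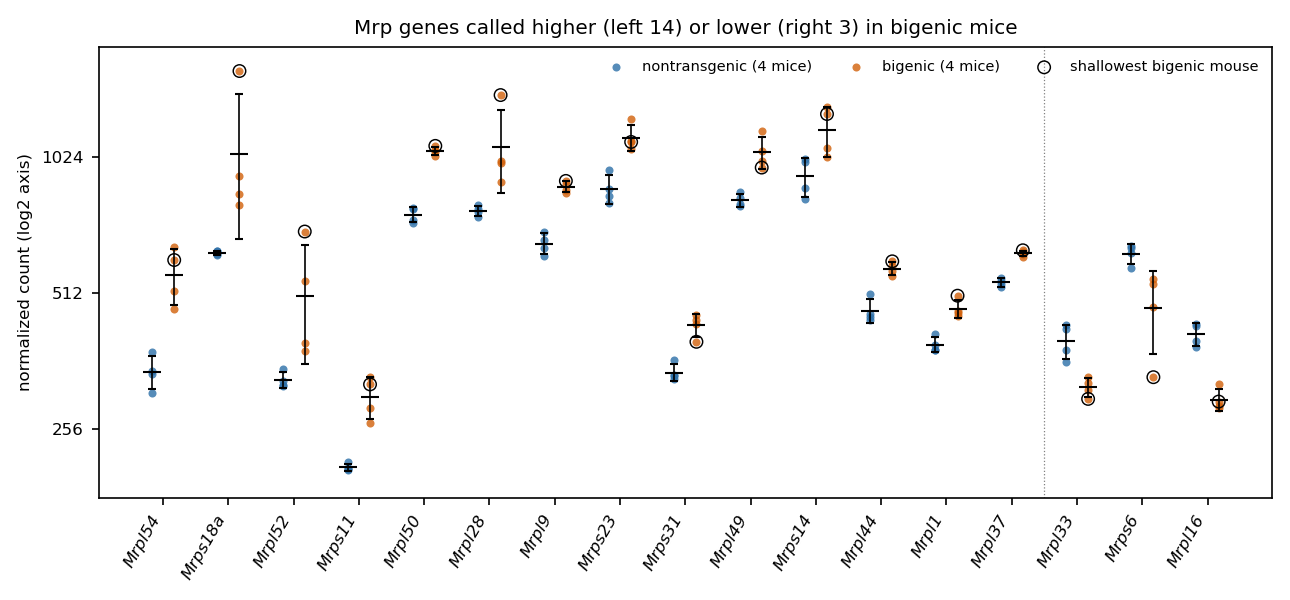
Normalized counts (log2 axis) of the 17 called genes in every mouse, with the mean and SD of each group of 4 in black; the shallowest bigenic mouse is circled. The groups are separate in all 17 genes, and the circled mouse is far above the other bigenic mice in Mrps18a, Mrpl28 and Mrpl52 and far below them in Mrps6.

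Of the small subunit, 4 genes rose. Mrps11, the counterpart of a bacterial protein of the small subunit's platform (chromosome 7, 85928005 to 85937875), had 264, 321, 285 and 334 normalized counts in bigenic mice against 209, 207, 208 and 216 in nontransgenic mice. The rise was 0.51 (standard error 0.11, limma adjusted p = 0.00505). Mrps23, found in mitochondrial but not bacterial ribosomes (chromosome 11, 88017890 to 88025009), had 1244, 1108, 1069 and 1111 against 872, 839, 810 and 960, a rise of 0.38. Mrps31, also particular to mitochondria (chromosome 8, 23521812 to 23540137), had 436, 399, 458 and 447 against 363, 330, 336 and 335, a rise of 0.35. These 3 genes were called in every alternative fit that tested them. Mrps11 was not tested in the fit that required 10 RPM in every mouse. Mrps14 (chromosome 1, 162125346 to 162132301), a protein of the small subunit's head, had 1327, 1278, 1072 and 1028 against 1014, 827, 877 and 1000. The lowest bigenic and the highest nontransgenic mouse of Mrps14 were close, and its rise of 0.34 (limma adjusted p = 0.0375) was not called in 5 of the 18 alternative fits. These include the removal of the first bigenic, the second nontransgenic or the third nontransgenic mouse (0.28 to 0.31, limma adjusted p = 0.0891 to 0.113).

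Mammals carry several genes related to the single bacterial S18 protein, of which Mrps18a and Mrps18c were measured. Their products occupy different places, that of Mrps18a in the large and that of Mrps18c in the small subunit. Mrps18a (chromosome 17, 46247935 to 46265859) had 933, 1592, 802 and 850 normalized counts in bigenic mice against 633, 623, 635 and 624 in nontransgenic mice. All bigenic mice lay above a very narrow nontransgenic group, with the shallowest mouse far above the rest. The rise was 0.67 (standard error 0.19, limma adjusted p = 0.0193) and 0.45 without that mouse (adjusted p = 0.000499). The rise was 0.42 with array weights, and without the second nontransgenic mouse the limma adjusted p was 0.051. Mrps18c (chromosome 5, 101227646 to 101233490) had 230, 155, 168 and 167 against 175, 178, 175 and 197, a log2(fold change) of -0.025 with groups that overlapped. The difference between the paralogues' changes was not tested. Of the 50-base windows of the Mrps18c exons, 78.7% occur once in the genome, the lowest share of the 68 genes, and only uniquely mapped reads were counted.

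Called falls were few, and Mrpl16 was the clearest. Mrpl16 is the counterpart of a bacterial protein near the site where tRNA is positioned for peptide bond formation (chromosome 19, 11844881 to 11849434). It had 321, 294, 288 and 284 normalized counts in bigenic mice against 432, 401, 389 and 437 in nontransgenic mice. The groups were apart and the change was -0.48 on the log2 scale (standard error 0.09, limma adjusted p = 0.00264), with the same call in all 18 alternative fits. Mrpl33, a small protein of the large subunit (chromosome 5, 31899308 to 32004345), had 324, 298, 333 and 312 against 383, 360, 434 and 425, a log2(fold change) of -0.33. Its call was lost in 3 alternative fits, without the third or the fourth nontransgenic mouse (limma adjusted p = 0.0717 and 0.0518) and with the GC and length trend removed (-0.21, adjusted p = 0.101), and 2.0% of its exonic bases are shared with Bre.

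Mrps6 was the only called fall of the small subunit (chromosome 16, 92058515 to 92112472). It had 477, 333, 535 and 549 normalized counts against 581, 652, 643 and 627. The lowest value was that of the shallowest mouse, and the log2(fold change) moved from -0.43 (limma adjusted p = 0.0471) to -0.27 (adjusted p = 0.0174) without it. The call was lost in 9 of the 18 alternative fits, among them the removal of the first bigenic or any 1 of the nontransgenic mice (-0.41 to -0.46, limma adjusted p = 0.0748 to 0.114). With array weights the value was -0.24. Exons of Slc5a3, a myo-inositol transporter gene that lies within Mrps6 on the same strand, cover 43.8% of the exonic bases of Mrps6, so reads of the 2 genes may have been counted for both. Mrpl53 had a larger fall that was not called (-0.57, limma adjusted p = 0.0686), with 428, 213, 428 and 444 against 589, 512, 590 and 470, and 87.1% of its exonic bases lie in Ccdc142.

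The 51 genes that were not called had log2(fold changes) between -0.57 and 0.36. Their standard errors had a median of 0.12, against 0.084 for the 14 risers. Leaving out the shallowest mouse brought 9 further genes past the threshold. Of these, Mrpl12, Mrpl34, Mrpl46, Mrps5 and Mrps22 were higher, with log2(fold changes) from 0.25 to 0.38 in that fit, and Mrpl17, Mrpl18, Mrpl53 and Mrps25 were lower, with -0.21 to -0.31. Mrpl12, whose product forms the stalk that recruits translation factors, had 732, 658, 953 and 909 against 654, 709, 761 and 621 normalized counts. Mrpl13, a protein that binds the large rRNA, had 671, 302, 715 and 708 against 680, 653, 709 and 620. In Mrpl13 the 3 deeper bigenic mice lay among or just above the nontransgenic mice, and its log2(fold change) went from -0.23 with all mice to 0.070 without the shallowest, neither of them called.

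**Figure D3:**
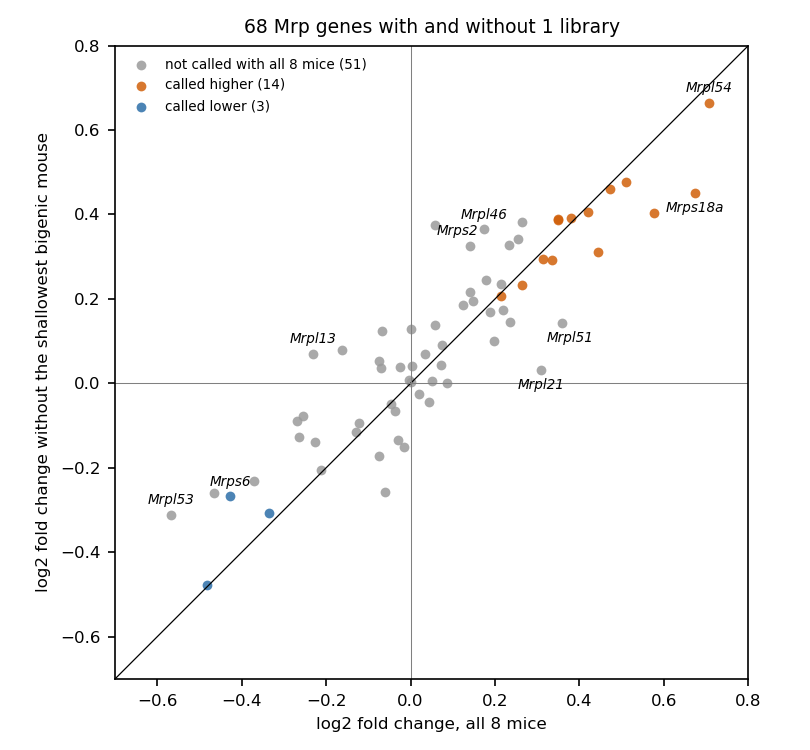
Log2(fold change) of the 68 genes with all 8 mice (x axis) and without the shallowest bigenic mouse (y axis), coloured by the call with all mice; the line marks equal values. The 17 called genes stay on their side of 0, 9 genes that were not called cross it (Mrpl13 by the most) and Mrpl21 and Mrpl51 fall to 0.031 and 0.14.

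Levels were compared between genes per kb of the longest annotated coding transcript. They ran from 3.44 to 48.3 RPM per kb, with a median of 17.1, as means over both groups. The highest belonged to Mrpl52 (58.5 RPM per kb in bigenic and 38.1 in nontransgenic mice), Mrps18a (56.1 and 34.0) and Mrpl20 (44.5 and 44.7). The first 2 of these were called higher. Mrpl20, a protein that helps the large subunit to assemble, had 579, 449, 839 and 907 normalized counts against 701, 684, 746 and 666, with bigenic mice on both sides of the nontransgenic range. Transcripts of the 68 genes are short (median 1300.5 bases, against 3380.0 for all genes tested) and close to other genes in GC content (51.8% against 50.1%).

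The gene pairs that lie head to head gave the levels of close neighbours in the same mice. Both genes were tested in 15 of the 22 annotated pairs, each pair counted once. In these 15 pairs 7 neighbours of an Mrp gene were called, counting Mrps11 as the neighbour of Mrpl46, all of them higher in bigenic mice. Of all genes tested, 20.5% were called higher and 15.4% lower. Hira, a histone chaperone gene whose start lies 270 bases from that of Mrpl40, had 2988, 3845, 2961 and 3036 normalized counts in bigenic mice against 1655, 1613, 1728 and 1754 in nontransgenic mice. Mrpl40 had 570, 685, 535 and 507 against 585, 509, 585 and 539. The neighbour was far above the nontransgenic range in every bigenic mouse while the 2 groups of Mrpl40 overlapped. The log2 ratio of Hira to Mrpl40 was 0.88 higher in bigenic mice (p = 0.0286 in an exact permutation test, two-sided, which is the lowest value possible for 4 mice against 4, and 0.107 after adjustment over the 15 pairs).

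Peo1, the mitochondrial DNA helicase also called Twinkle, overlaps Mrpl43 by 369 bases at their starts. Peo1 had 926, 1028, 793 and 859 normalized counts against 482, 456, 474 and 564, a log2(fold change) of 0.87, whereas Mrpl43 had 661, 662, 812 and 734 against 733, 701, 762 and 659, a value of 0.004. Eme2 beside Mrps34 and Wdfy1 beside Mrpl44 were the other pairs whose ratio reached the smallest p. Eme2 was 0.51 higher where Mrps34 was at -0.004, and Wdfy1 was at -0.27 (not called) where Mrpl44 was 0.31 higher. The adjusted p was below 0.05 in 0 of the 15 pairs, and these pairs were set side by side after their values were seen. The smallest p was reached in 4 of the 15 pairs, and other partners had like log2(fold changes). Examples are Mrpl50 and Zfp189 (0.473 and 0.575), Mrpl51 and Ncapd2 (0.359 and 0.422) and Mrps5 and Zfp661 (0.178 and 0.143). Exons of Mrps34 are covered for 77.8% by Nme3 and Mapk8ip3.

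Mrps11 and Mrpl46 are the pair in which both genes serve the mitochondrial ribosome. Mrpl46 had 751, 509, 917 and 929 normalized counts against 720, 679, 679 and 603. The 3 deeper bigenic mice lay above the nontransgenic range and the shallowest below it, and the log2(fold change) was 0.18 with all mice (limma adjusted p = 0.457) and 0.36 without it (adjusted p = 0.00872). The ratio of the 2 genes differed by 0.34 between the groups (p = 0.143 in the same exact permutation test). Their first exons overlap on opposite strands, and although the library was made to keep strand, no source says that counting used it, so reads of overlapping partners, Peo1 and Mrpl43 or Wdfy1 and Mrpl44 included, may be shared.

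**Figure D4:**
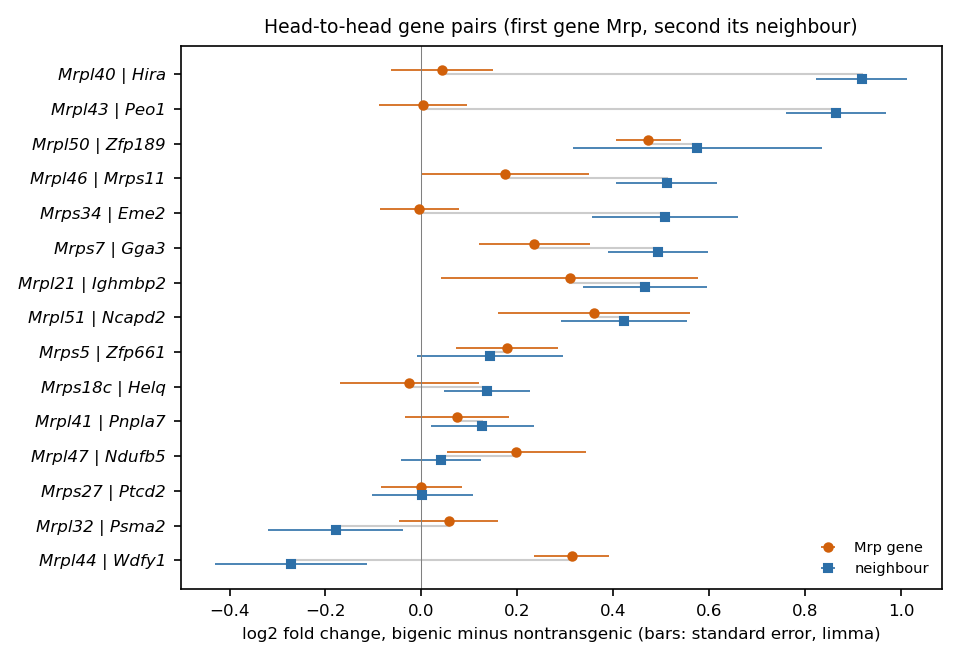
Log2(fold change) of Mrp genes (circles) and of their head-to-head neighbours (squares) for the 15 pairs with both genes tested; bars are standard errors from limma. Hira, Peo1 and Eme2 lie 0.51 or more above 0 while their partners Mrpl40, Mrpl43 and Mrps34 lie within 0.043 of it. In other pairs, such as Mrpl50 with Zfp189 and Mrpl51 with Ncapd2, both values lie close together.

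Other genes of mitochondrial translation were counted in lists, to be read against the 20.5% of all genes called higher and the 15.4% called lower. Of the 7 mitoribosome proteins without an Mrp symbol, 3 were called higher (42.9%) and 0 lower by limma, with a median log2(fold change) of 0.25. Ict1, a peptidyl-tRNA hydrolase built into the large subunit, had 826, 811, 795 and 835 normalized counts against 659, 589, 689 and 582, a rise of 0.38. Aurkaip1, a protein of the small subunit, had 1676, 2436, 1418 and 1425 against 1007, 1068, 1060 and 1021, a rise of 0.71. Chchd1 and Mrp63 had log2(fold changes) of -0.32 and -0.30 and were not called. The count of 0 lower did not hold in every fit. A single gene was called lower with 10 RPM required in every mouse, after rescaling to the same total, after quantile normalization, with array weights, by voom and without the shallowest mouse (Chchd1, adjusted p = 0.0145), and 2 were called lower without the third bigenic mouse.

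Of 17 mitochondrial translation factors 3 rose (17.6%) and 0 fell, with a median of 0.064. Mtif3, an initiation factor, was higher by 0.42 and Lrpprc, which stabilizes mitochondrial mRNAs, by 0.34. Of 21 genes of mitoribosome assembly and rRNA modification 5 rose (23.8%) and 0 fell, with a median of 0.26. C1qbp, a matrix protein needed for mitochondrial translation, had 2555, 2670, 2556 and 2600 normalized counts against 1608, 1393, 1465 and 1409, a rise of 0.82 (standard error 0.07, limma adjusted p = 5.08e-05). Rpusd4, a pseudouridine synthase of the large rRNA, was higher by 0.96, with 217, 256, 214 and 203 against 119, 111, 105 and 119. Every bigenic mouse stood above every nontransgenic mouse in both genes, and their rises were larger than that of any Mrp gene, which was not tested as a difference.

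Of 14 mitochondrial aminoacyl-tRNA synthetases 2 rose (Cars2 by 0.53 and Nars2 by 0.38) and 1 fell, with a median of 0.12, so 14.3% were called higher. The fall was not called in 5 of the 8 fits without 1 mouse, those without the third or the fourth bigenic or the first, the second or the third nontransgenic mouse, and without the first nontransgenic mouse 1 gene was called higher. Of 7 genes of mitochondrial DNA maintenance and transcription 4 rose, among them Peo1 and Polrmt, the mitochondrial RNA polymerase, by 0.59, and 0 fell, with a median of 0.53 that was 0.33 without the shallowest mouse. Of 10 nuclear factors of mitochondrial biogenesis 4 rose and 0 fell, with a median of 0.065. The median was 0.17 without the shallowest mouse and 0.024 without the third bigenic mouse, and 2 were called higher without the second or the third nontransgenic mouse. Pprc1 and Ppargc1b, coactivators of the PGC-1 family, were higher by 0.68 and 1.09, and by 0.64 and 0.87 without the shallowest mouse. At an unadjusted p below 0.05, 1 gene each was lower among the proteins without an Mrp symbol, the translation factors and the nuclear factors, and array weights called 2 translation factors and 1 nuclear factor lower.

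The cytosolic ribosome and the respiratory chain had calls in both directions. Of 43 cytosolic ribosomal protein genes 12 rose and 4 fell (median log2(fold change) 0.23), and Rplp0 and Rps19 were higher by 0.70 and 1.08. Without the shallowest mouse 19 were called higher, and with any 1 mouse left out 9 to 19 were called higher and 1 to 4 lower. In the fits without 1 mouse, 14.3% to 25.3% of all genes were called higher and 10.5% to 20.2% lower. Many of the cytosolic ribosomal protein genes have near-identical copies elsewhere in the genome and are counted with uncertainty. Of 72 nuclear genes picked by symbol pattern for respiratory chain and ATP synthase subunits, 6 rose (8.3%) and 11 fell (15.3%), with a median of -0.064. The pattern also took in Cox4nb, Atp5s and Atp5sl, none of them called, and not every match need encode a subunit. The share of fallers was near the 15.4% of all genes, and the share of risers was below the 20.5% of all genes. With any 1 mouse left out 4 to 9 were called higher and 7 to 16 lower, the most of both without the shallowest and 7 lower without the first, the second or the third nontransgenic mouse. Sdha, of complex II, was lower by 0.51 on the log2 scale, and Ndufs8, of complex I, was higher by 0.41. The 68 Mrp genes thus lay between these lists in median, and differences between lists were not tested.

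**Figure D5:**
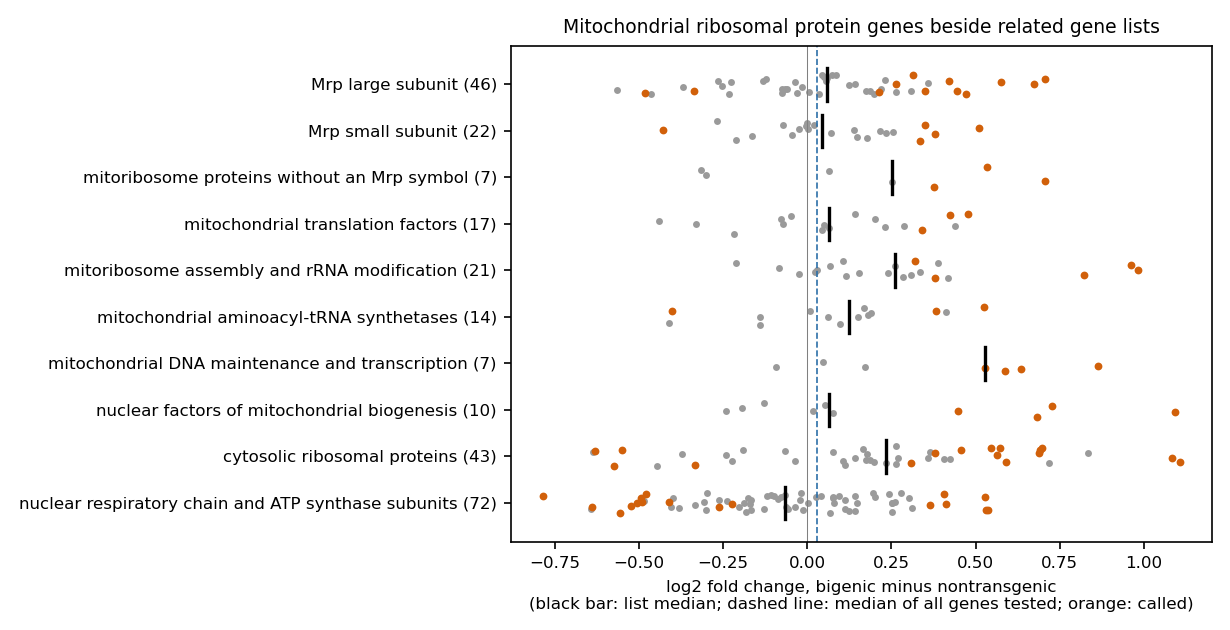
Log2(fold change) of each gene of the mitochondrial ribosome by subunit and of 8 related lists, with the number of tested genes in parentheses; orange points are called, black bars are list medians and the dashed line is the median of all genes tested (0.029). Medians run from -0.064 for respiratory chain and ATP synthase subunits to 0.53 for mitochondrial DNA maintenance and transcription, the latter 0.33 without the shallowest mouse.

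Markers of several cell types differed between the same groups, and their part in the values above was not tested. Their counts are to be read against the 20.5% of all genes called higher and the 15.4% called lower. Of 12 choroid plexus markers listed 5 passed the filter on low values, 4 of them (F5 and Kl included) only through the bigenic mice, so that their count of calls was largely set by the filter. The summed level of the 5 was 389 to 982 RPM in the bigenic mice and 20.1 to 61.0 RPM in the nontransgenic mice. Neuronal markers were mixed, with 2 of 12 higher (16.7%) and 5 lower (41.7%). Their sums were 8507 to 10509 against 10206 to 10725 RPM, with Thy1 0.77 higher and Camk2a at -0.88. Astrocyte markers fell in 4 of 10 (Gja1 and Aqp4 first, sums of 5690 to 6973 against 7275 to 7960 RPM) and microglial markers in 5 of 9 (Cx3cr1 and P2ry12 first, 239.7 to 341.5 against 335.8 to 396.4 RPM), with 0 higher by limma in either list, also at an unadjusted p below 0.05 and by voom. Among oligodendrocyte markers 1 of 10 rose (10.0%, Mobp, with Mag next and not called, 3020 to 4373 against 3169 to 4006 RPM). Among endothelial and pericyte markers 1 of 8 fell (12.5%, Flt1, with Rgs5 next and not called, 271 to 353 against 332 to 382 RPM). With any 1 mouse left out, 1 to 3 neuronal markers were called higher and 2 to 5 lower, 0 to 2 oligodendrocyte markers higher and 0 to 2 endothelial and pericyte markers lower. The defining markers of neurons were high in every mouse and 0 of the tested markers were at 0 in any mouse.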

How the data were processed

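RNA selected for poly(A) from right cortex (4 bigenic, 4 nontransgenic mice) was read as 50-base single-end reads. Per the labels and methods, the authors used cutadapt for adaptors and Bowtie 0.12.7 for mapping to mm9, kept uniquely mapping reads, counted these on exons with bedtools and summed them into genes. The deposited values are a signal per transcript: whole numbers, scaled mouse by mouse (normalized counts), for 28662 transcripts. How the scaling was obtained is not given in the sources used here. The authors' DESeq2 table (fold changes, p-values, mean signal) served only for symbols.

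The 10588 genes at 10 RPM or more in 1 mouse or more were compared with limma 3.58.1 (trend) in R 4.3.3 on log2(value + 1), which understates changes of low genes, with Benjamini-Hochberg adjusted p below 0.05 as the threshold. No count test was the main test because rounding after scaling does not leave whole reads, and depth is approximate. Both the fit and the estimate of depth were tested on simulated data. No source says whether mice of a group came from separate litters, so p-values measure the spread between these mice.

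Values in every mouse are given for up to 10 called Mrp genes of largest rise and up to 10 of largest fall, the Mrps18 paralogues, the 3 highest per kb and genes with 1 mouse far from its group. Each other list is represented by its 2 genes of smallest adjusted p. Further genes, and the head-to-head pairs, were picked with their values in view, and the genes, lists and tests were chosen with earlier results of these data known. Positions come from GENCODE on mm9 and promoters from RefSeq on GRCm38.p6. Alternatives were pseudocounts of 10 and 0.1, other filters, rescaling, quantile normalization, a GC and length trend removed (96.9% of genes had both), array weights, voom on approximate reads, an adjusted p below 0.01, a 1.5-fold minimum and each mouse left out. Python 3.11.15, scipy 1.17.1 and matplotlib 3.10.9 were used.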

Additional observations from a re-analysis of the deposited data

Results flagged for a closer look

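In 10 of 136 groups of 4 mice (68 genes, each in bigenic and in nontransgenic mice) the highest or lowest mouse stood far from the others, with a gap to its nearest neighbour, as a share of the group's range, above Dixon's critical value for 4 samples. Chance flags about 1 group in 20. Of the 7 bigenic groups, 6 were set by the shallowest library. It was the low mouse in Mrpl13 (0.893 of the range), Mrpl14 (0.912), Mrpl17 (0.839) and Mrpl53 (0.931) and the high mouse in Mrpl21 (0.877) and Mrps18a (0.834). Mrpl14 had 230, 93, 218 and 227 normalized counts in bigenic mice against 152, 239, 206 and 120 in nontransgenic mice, Mrpl17 had 430, 300, 455 and 439 against 526, 542, 555 and 455, and Mrpl21 had 126, 254, 108 and 118 against 91, 122, 115 and 135. Of these 6 genes only Mrps18a was called with all mice. In Mrpl3 a deeper bigenic mouse was high (0.837), with 957, 943, 1035 and 958 against 1137, 1066, 1051 and 1007.

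All 3 nontransgenic flags belonged to 1 mouse, the last listed. It was the high mouse in Mrpl11 (0.943) and Mrps18c (0.864) and the low mouse in Mrps2 (0.958). Mrpl11 had 536, 533, 537 and 603 normalized counts in nontransgenic mice against 522, 720, 526 and 447 in bigenic mice, and Mrps2 had 459, 455, 458 and 363 against 430, 323, 640 and 577. Across the 68 genes, this mouse's departures from its group had a Pearson r of 0.53 with those of the shallowest bigenic mouse from its own group, and 0.49 across all 10588 genes, as a description over genes that share the same libraries. These 3 genes were not called with all mice.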

How the results depend on the processing

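No paired analysis was possible because the columns carry no replicate number. The 14 and 3 genes called higher and lower became 26 and 10 with array weights, which gave the shallowest bigenic mouse a weight of 0.0843 (34.1% and 26.9% of all genes), 6 and 1 at an adjusted p below 0.01 (11.3% and 8.14%), and 2 and 0 with a 1.5-fold minimum (7.07% and 5.34%). Called falls were 5 after quantile normalization (17.4% of all genes) and 1 with the GC and length trend removed (16.7%), which also took the median log2(fold change) from 0.058 to 0.106. With 1 mouse left out, 9 to 19 genes were called higher (14.3% to 25.3% of all genes) and 1 to 7 lower (10.5% to 20.2% of all genes). The median was 0.037 to 0.085. The fewest risers, 9, came without the second nontransgenic mouse, when 14.3% of all genes were called higher. The single fall came without the third or the fourth nontransgenic mouse (10.5% and 13.5% of all genes called lower), and 7 falls without the shallowest bigenic mouse (20.2%). Of the 17 called genes, 9 were called in every one of the 18 alternative fits that tested them (Mrpl9, Mrpl16, Mrpl44, Mrpl49, Mrpl50, Mrpl54, Mrps11, Mrps23 and Mrps31). Mrps11 was not tested in the fit that required 10 RPM in every mouse. Of the 339 alternative values of the 17 called genes, 0 changed sign. Among genes not called, direction turned for Mrps18c after quantile normalization (0.026), for Mrpl11 (0.034), Mrpl14 (-0.014) and Mrps18c (0.124) with the GC and length trend removed, and for Mrpl13 (0.051) and Mrpl20 (0.247) with array weights. With 1 mouse left out the log2(fold change) ran from -0.15 to 0.079 in Mrpl11, from -0.344 to 0.070 in Mrpl13, from -0.116 to 0.376 in Mrpl14, from -0.214 to 0.123 in Mrpl20, from -0.148 to 0.040 in Mrps18c and from -0.002 to 0.326 in Mrps2. The cause of these moves was not tested.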
